A study of Mus musculus with 80 samples.

Results

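The liver makes most of the plasma proteins of complement and of blood clotting, and 36 of their genes were followed here across 19 groups of male mouse livers. The genes were taken by symbol from the normalized array table, which held all 36 of them among its 18138 entries, and all 36 were among the 11352 genes that passed the detection filter. Of these, 35 were detected on all 80 arrays. Fgb, which encodes the fibrinogen beta chain, was detected on 30 arrays and read between 88 and 182, close to the array medians of 105.7 to 106.4, so that its level could not be measured. The other members were 6 vitamin K-dependent proteins, 5 contact factors and cofactors, 4 further proteins of fibrin and its breakdown, 4 serpin inhibitors, 7 proteins of the classical and lectin complement pathways, 3 of C3 and the alternative pathway and 6 of the terminal pathway.

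The mice were male B6C3F1, a hybrid of inbred laboratory strains. Ethinyl estradiol (EE2), a synthetic estrogen, was given in feed at 1, 2.5, 5 and 10 ppm for 7 d and at 10 ppm for 28 d. Prednisone (PRED), a glucocorticoid drug activated in the liver, was given in feed at 1.25, 2.5, 5 and 25 ppm for 7 d and at 25 ppm for 28 d. Androstenedione (A4), a steroid from which androgens and estrogens are made, was gavaged for 7 d at 4 doses, 2, 10, 20 or 50 mg/kg/day, and for 28 d at the highest of them. Each treated group had 4 arrays. The controls were 6 arrays of plain feed at 7 d, 6 at 28 d, and 4 arrays of gavaged carboxymethyl cellulose vehicle at each duration. In the array names, 9 numbers occurred on several arrays, 19 arrays in all. The 6 feed controls had 5 different numbers at 7 d and 4 at 28 d. The 4 arrays of EE2 at 28 d had 3, as had those of PRED at 25 ppm at each duration. Labels do not say whether arrays with the same number came from 1 animal, and the main fit counts each array as independent. All comparisons at 7 d with EE2 or PRED share 1 set of feed controls, and those at 28 d share the other. Ages and food intake were not given in the labels, and doses are those in the feed.

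Clotting runs as a chain of proteases made as inactive precursors. Factor VII starts it, factors IX, X and II (prothrombin) carry it forward with factor V as a cofactor, and fibrin is the end product. Antithrombin, heparin cofactor II, protein C and protein S hold it back, and plasminogen dissolves the clot. Complement is a similar chain: mannose-binding lectins with their proteases, or C1, cleave C4 and C2, then C3 is cleaved, and C5 to C9 assemble into a pore in the target membrane. Oral estrogens are known in humans to shift the plasma levels of several clotting factors and inhibitors.

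Values are the deposited normalized intensities on a linear scale, in which background lies near the array medians given above. Changes are differences of log2(intensity + 16), treated minus control, with the standard error (SE) of the fit, and a gene is said to have risen or fallen where limma's two-sided p, adjusted by Benjamini-Hochberg over the 11352 genes of that comparison, was under 0.05. Intensities of different genes come from different probes and are not set against each other. Liver is a mixed tissue, so fewer cells of a type and less RNA per cell cannot be told apart.

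Several arrays stood apart within the EE2 groups at 7 d. At 10 ppm, replicate 2 had a summed intensity of 3607 over 10 macrophage and Kupffer cell markers, against 9819 to 16234 on the other EE2 arrays of that dose. At 5 ppm, replicate 3 had a sum of 16812, and the other EE2 arrays of that dose had 2573 to 3404. At 1 ppm, replicate 3 reached 14968, where the other EE2 arrays had 2225 to 6210, and at 2.5 ppm replicate 2 reached 10337, where the others had 1799 to 4461. The feed controls at 7 d lay between 3024 and 3745. Counts of called genes in these groups, and the changes of C9 and C6, are given with and without these arrays.

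At 10 ppm EE2 for 7 d, 17 of the 36 genes fell and 2 rose. Among all genes tested, 15.2% fell and 18.1% rose in the same comparison. The median change of the 36 genes was -0.45, against 0.00 over all genes tested. In 15 of the 36, the 4 EE2 arrays all lay below all 6 feed controls, which was so for 9.61% of all genes. The falls ran through every role but the contact factors and C3 with the alternative pathway. Terminal complement had the most, with 6 of 6 members fallen, followed by the serpin inhibitors with 3 of 4, the vitamin K-dependent proteins with 3 of 6, the classical and lectin group with 3 of 7, and fibrin and its breakdown with 2 of 5. Without EE2 replicate 2, 11 members fell and 4 rose, and the median was -0.28. In that fit 3784 of all genes were called, and with all arrays 2056 rose and 1727 fell. The 6 calls lost without it were Proc, Serping1, C2, Hc, C6 and C9, and Klkb1 and C3 were gained as rises. On the 2 chips that held an EE2 and a control array, the median change was -0.33 and -0.86. These arrays are also part of the whole comparison.

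Hepatocyte and macrophage markers moved in the same groups. Of 8 hepatocyte markers tested, 3 fell at 10 ppm and 7 d, where 15.2% of all genes fell. The sum of the list was 66762 to 74366 with EE2 against 79132 to 83932 in feed controls. All 9 macrophage markers tested rose, and their sum was 3607 to 16234 with EE2 against 3024 to 3745 in feed controls. At 28 d the hepatocyte sum was 60568 to 75959 with EE2 against 82644 to 90796 in controls, and the macrophage sum was 8798 to 11058 against 2591 to 3735. Cd5l was detected on no array of these groups, and Cd163 on none of the EE2 arrays at 28 d. Of the hepatocyte markers, Fabp1 was detected on none. The part of either cell type in the changes of the complement and clotting genes was not tested.

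**Figure D1:**
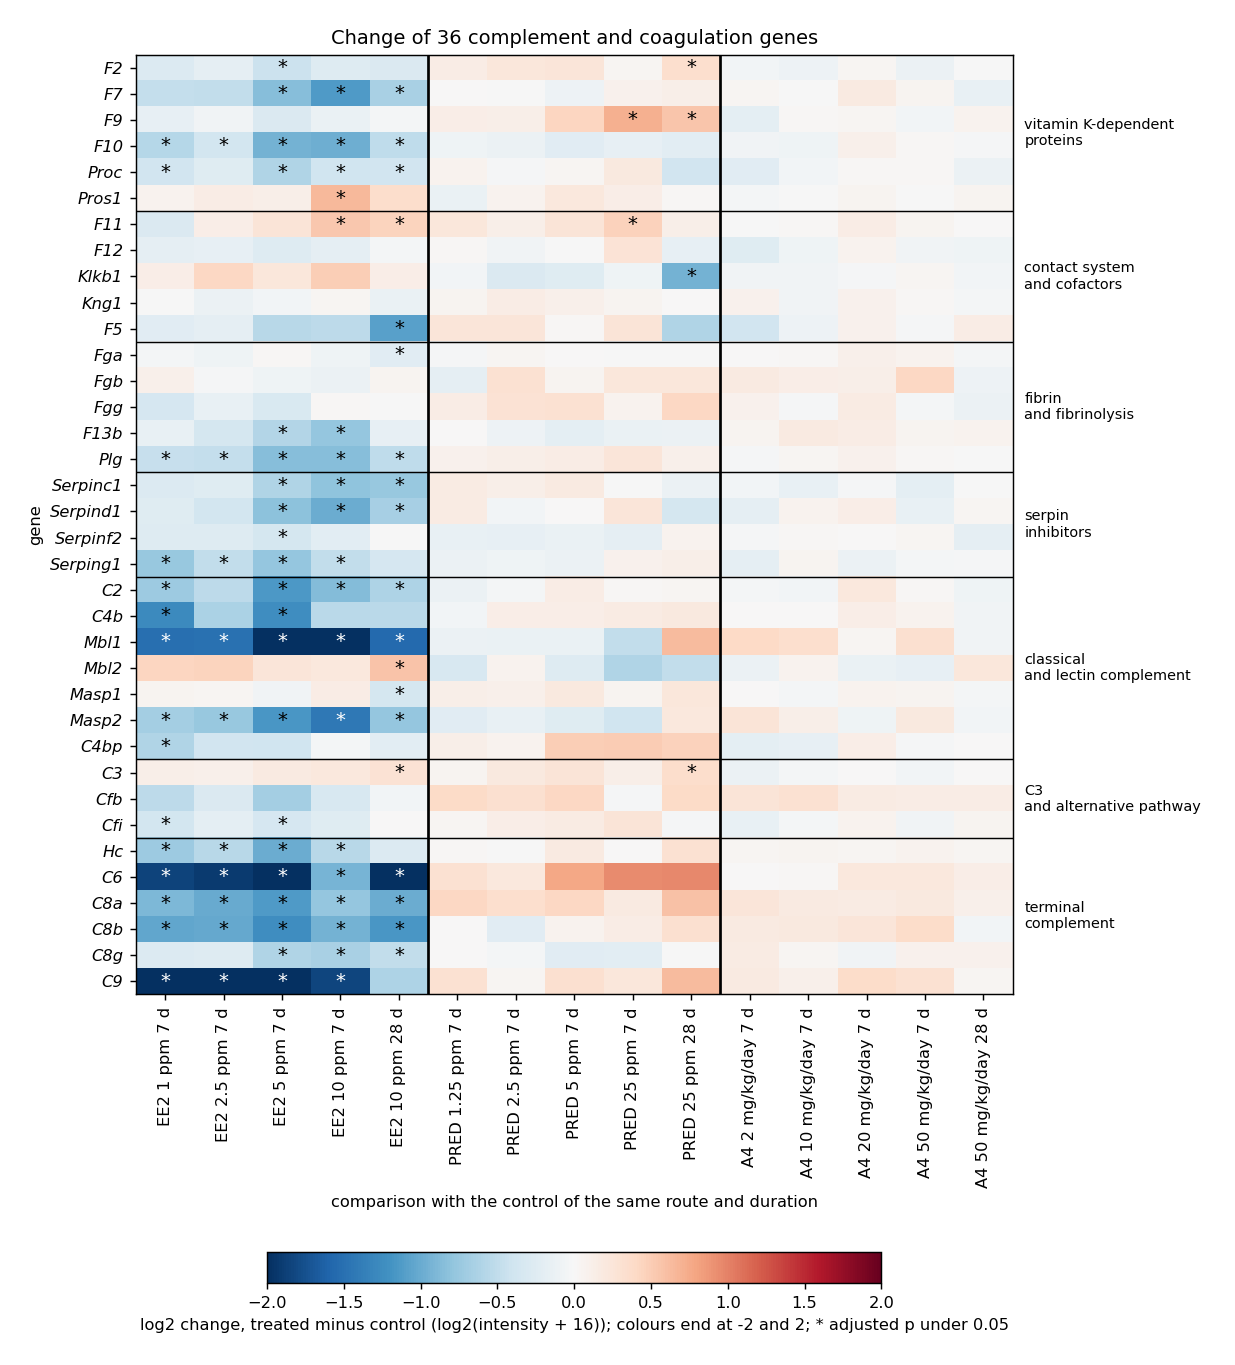
Log2 change of each of the 36 genes (rows, grouped by role) in each of the 15 treated groups against the control of its route and duration (columns); blue is lower and red higher in the treated group, and an asterisk marks an adjusted p under 0.05. Most asterisks lie in the 5 EE2 columns, where the 6 terminal complement genes at 5 and 10 ppm and 7 d are all marked, and no A4 column has one.

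In the lectin pathway, Mbl1, which encodes a mannose-binding lectin that recognises sugars on microbes, had the largest fall of the 36 genes at 10 ppm and 7 d. Its intensity was 911, 653, 717 and 620 with EE2, against a lowest, median and highest control of 2981, 3528 and 5623. All EE2 arrays were far below all controls, and the level was 5.06-fold lower (log2 change -2.34 ± 0.22, SE; limma adjusted p = 4.51e-13). At 28 d it was 776, 873, 703 and 863 with EE2, against 1861, 2318 and 3117 in the lowest, median and highest control, again without overlap (-1.55 ± 0.22, adjusted p = 6.88e-08). Mbl1 also fell at 1, 2.5 and 5 ppm, by 1.51, 1.49 and 2.35 on the log2 scale.

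Masp2, the protease that mannose-binding lectin brings to cleave C4 and C2, had 1232, 925, 799 and 680 with EE2 at 10 ppm and 7 d, against 2259, 2439 and 2618 in the lowest, median and highest control. The groups did not overlap (-1.43 ± 0.14, adjusted p = 3.72e-12). At 28 d Masp2 fell by 0.78 (adjusted p = 1.80e-05), and at 1, 2.5 and 5 ppm by 0.68, 0.76 and 1.17. C2, the substrate that Masp2 cleaves, fell by 0.86 at 7 d and by 0.62 at 28 d. Masp1, a related protease of the same complexes, had a change of 0.14 ± 0.13 at 7 d (adjusted p = 0.434) and fell by 0.36 at 28 d.

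Mbl2 encodes the second mannose-binding lectin of the mouse. Its levels with EE2 at 28 d were 4409, 3893, 3727 and 3437, against 1960, 2592 and 3225 in the lowest, median and highest feed control. Every EE2 array was above every control, and Mbl2 rose (0.58 ± 0.22, adjusted p = 0.0429). With the chip as a block the adjusted p was 0.161, and the call was also lost in 7 of the 10 fits that left out 1 array. At 10 ppm and 7 d the change of Mbl2 was 0.22 ± 0.22 (adjusted p = 0.49), with levels of 3425, 1728, 2795 and 2930 against 1226, 2461 and 3018 in the lowest, median and highest control, so that the groups overlapped.

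The 250 bases before the start of Mbl1 and of Mbl2 are shown here because the 2 related genes moved apart at 28 d. They are taken from RefSeq on build GRCm38.p6, Mbl1 from chr14:41151206-41151455 on the plus strand and Mbl2 from chr19:30232678-30232927 on the plus strand, and capitals mark the longest run of letters that both hold, 13 bases that start 23 bases before the start of Mbl1 and 57 bases before the start of Mbl2.
Mbl1: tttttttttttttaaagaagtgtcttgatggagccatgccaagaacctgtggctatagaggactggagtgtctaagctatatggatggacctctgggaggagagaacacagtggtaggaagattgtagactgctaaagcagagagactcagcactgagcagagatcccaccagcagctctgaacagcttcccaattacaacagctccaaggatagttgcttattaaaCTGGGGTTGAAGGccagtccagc
Mbl2: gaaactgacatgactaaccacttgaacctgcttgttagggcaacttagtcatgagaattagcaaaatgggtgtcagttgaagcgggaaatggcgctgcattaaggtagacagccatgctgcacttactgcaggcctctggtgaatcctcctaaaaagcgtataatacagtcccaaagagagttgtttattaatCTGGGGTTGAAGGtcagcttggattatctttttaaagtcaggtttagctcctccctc
Neither window held an exact match of the HNF4, C/EBP, estrogen, glucocorticoid or STAT motifs.

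C4b, the complement factor that C1s and Masp2 cleave, fell by 1.27 at 1 ppm and by 1.24 at 5 ppm, and had a change of -0.54 ± 0.25 at 10 ppm and 7 d (adjusted p = 0.0835). Its levels at 10 ppm were 4457, 1784, 3789 and 4319 with EE2 against 3973, 4858 and 7054 in the lowest, median and highest control, so 2 EE2 arrays lay below all controls and the other 2 overlapped them. The mouse has a near-identical gene, C4a, and the probe may read both. C4bp, which binds C4b and helps to inactivate it, fell at 1 ppm (-0.60 ± 0.20, adjusted p = 0.0335). That call was lost without replicate 1 of 1 ppm, and C4bp passed as a fall at 5 ppm without replicate 3 of that dose. Serping1, the C1 inhibitor, fell by 0.76, 0.49, 0.77 and 0.50 over the 4 rising doses, and had a change of -0.34 at 28 d (adjusted p = 0.0908).

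In the terminal pathway, C9, whose protein forms the wall of the membrane pore, varied most between arrays of a group. At 10 ppm and 7 d it was 3151, 182, 2537 and 3616 with EE2, against 4913, 5555 and 5996 in the lowest, median and highest control. All EE2 arrays were below all controls, and replicate 2 was far below the others (-1.83 ± 0.50, adjusted p = 0.00331). Without replicate 2 the change was -0.84 and did not pass (adjusted p = 0.162). The 1 ppm group had C9 levels of 264, 450, 4036 and 818. The 2.5 ppm group had 940, 1614, 733 and 219, and the 5 ppm group 196, 288, 3835 and 259. Most of these arrays were low, and each of those groups lay below all controls, and the log2 change was -2.76, -2.93 and -3.43. Without the arrays that stood apart it was -3.53 at 1 ppm, -3.32 at 2.5 ppm and -4.40 at 5 ppm. Those arrays had the highest C9 of their groups, so a larger fall without them was fixed in advance.

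At 28 d C9 was 3353, 2598, 3866 and 2042 with EE2, against 3717, 4412 and 5713 in the lowest, median and highest control, with 1 EE2 array inside the control range, and did not pass (-0.62 ± 0.50, adjusted p = 0.397). A direct test of 10 against 5 ppm at 7 d, added after these values were seen, called none of the 36 genes with limma, and 0% of all genes, although 5 of the 36 and 923 of all genes had an unadjusted p under 0.05. The difference for C9 was 1.60, with a 95% interval of 0.50 to 2.71 (adjusted p = 0.431). Without replicate 2 of 10 ppm it was 2.59 (limma adjusted p = 0.00452), and without replicate 3 of 5 ppm it was 2.57 (adjusted p = 0.000879). In each case 4 members passed, and of all genes 338 and 691 passed in these fits. Both arrays left out had C9 values far from the others of their group. These fits therefore cannot serve as a test of the C9 difference.

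C6, which C5b recruits when the pore begins to form, is encoded on the same chromosome as C9. It was 1472, 472, 1361 and 1994 with EE2 at 10 ppm and 7 d, against 2021, 2214 and 2612 in the lowest, median and highest control. The EE2 arrays were all below the controls, 1 of them narrowly (-0.93 ± 0.33, adjusted p = 0.0246), and without replicate 2 the adjusted p was 0.27. At 28 d C6 was 508, 361, 505 and 502 with EE2, against 1844, 1985 and 2741 in the lowest, median and highest control. There the groups lay far apart, 4.47-fold on the log2(intensity + 16) scale (-2.16 ± 0.33, adjusted p = 4.50e-07). At 1, 2.5 and 5 ppm C6 fell by 1.85, 1.92 and 1.99, and without the same arrays the changes were -2.43, -2.32 and -2.45. Those arrays also had the highest C6 of their groups, so this too was fixed in advance.

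The EE2 arrays with much C9 and C6 at 7 d were the same ones that had high macrophage markers. Of the 16 EE2 arrays, the 6 with the highest macrophage sums, 9819 or more, were also the 6 with the highest C9, 1614 or more, and the 6 with the highest C6, 1361 or more. On the other 10 EE2 arrays the macrophage sum was at most 6210, C9 at most 940 and C6 at most 760. For Mbl1 only 1 of the 6 was among the 6 highest. In feed controls the macrophage sum was low and C9 and C6 were high, so the order among EE2 arrays did not extend to the controls. At 28 d the EE2 arrays had macrophage sums of 8798 to 11058, C9 of 2042 to 3866 and C6 of 361 to 508. There C6 was low beside a high sum, so for C6 the order did not extend to 28 d either. What links these measures was not tested.

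**Figure D2:**
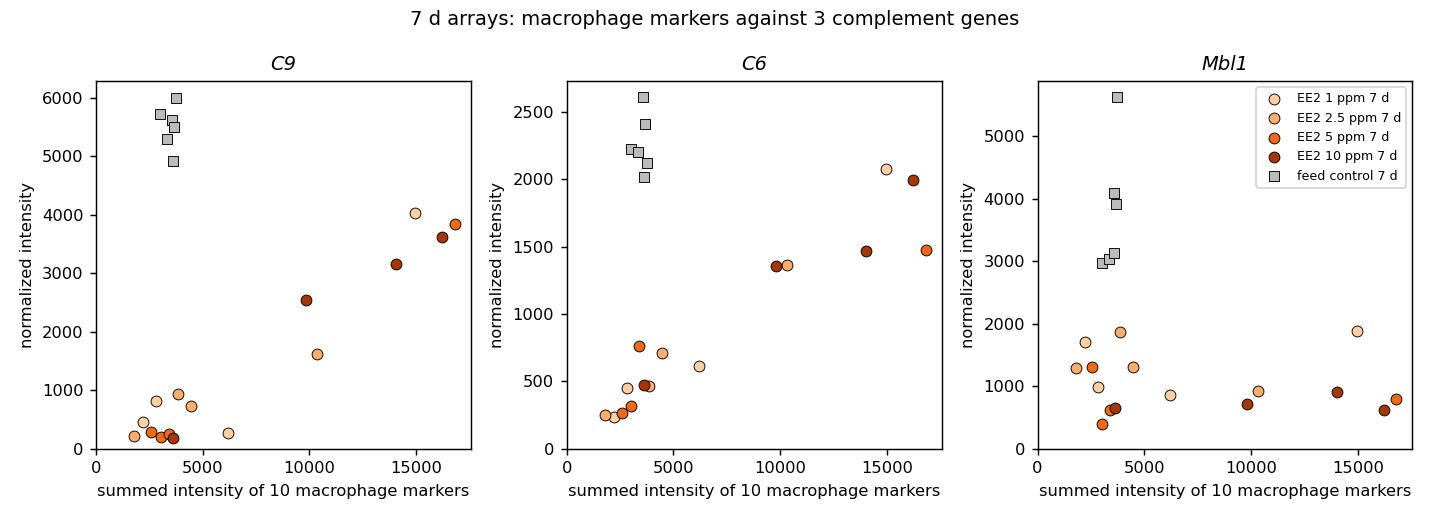
Normalized intensity of C9, C6 and Mbl1 (vertical axes) against the summed intensity of 10 macrophage markers (horizontal axes) on each of the 16 EE2 arrays and 6 feed controls at 7 d. The 6 EE2 arrays with sums of 9819 or more have the highest C9 and C6 of the EE2 arrays, and Mbl1 does not follow that order.

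The other terminal genes varied less. C8b, a subunit of the C8 complex that first enters the membrane, was 2414, 1603, 2707 and 1995 with EE2 at 28 d, against 4022, 4595 and 6242 in the lowest, median and highest control. The groups did not overlap (-1.17 ± 0.17, adjusted p = 7.79e-08). C8b fell by 1.04, 1.02, 1.24 and 0.95 at 1, 2.5, 5 and 10 ppm and 7 d. C8a, its neighbour on chromosome 4 and the subunit next to it in the complex, fell by 0.91, 1.01, 1.13 and 0.77 at these doses and by 1.00 at 28 d. C8g, the small subunit that carries a lipocalin fold, fell by 0.59 at 5 ppm, by 0.64 at 10 ppm and by 0.50 at 28 d. Hc, which encodes C5, fell by 0.72, 0.56, 0.99 and 0.56 at 1, 2.5, 5 and 10 ppm and had a change of -0.28 at 28 d (adjusted p = 0.305).

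**Figure D3:**
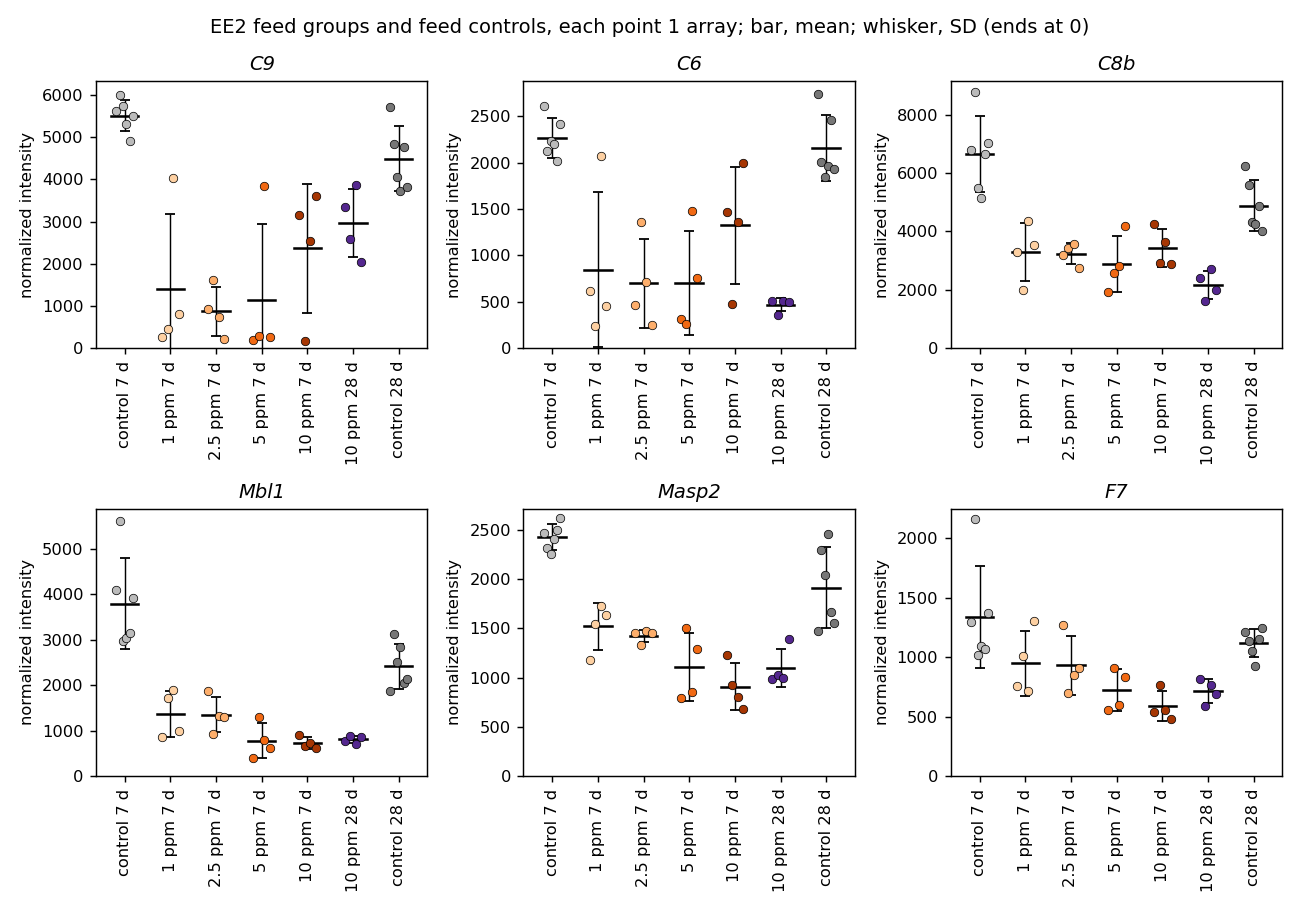
Normalized intensity of 6 genes in the feed controls and EE2 groups, in order of dose at 7 d and then for 28 d; each point is 1 array, the bar is the mean and the whisker the SD. Mbl1 and Masp2 are lower in all EE2 groups, and C9 and C6 hold low and high arrays within the EE2 groups at 7 d.

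C3, the component on which all complement pathways converge, passed the test at 28 d alone among the EE2 groups. There it was 8579, 9630, 12769 and 11697 with EE2, against 7111, 8937 and 10015 in the lowest, median and highest control. The groups overlapped, and C3 rose by a small step (0.29 ± 0.10, adjusted p = 0.0292). That call was lost in 4 of the 10 fits that left out 1 array and with the number in the array names as a random block (adjusted p = 0.0797). Of 15 acute phase genes, 7 rose in the same comparison, where 14.8% of all genes rose. The summed intensity of the 15 was 101712 to 115629 with EE2 against 65262 to 107428 in feed controls. The part of these genes in the rise of C3 was not tested. Cfb, the protease of the alternative pathway, had a change of -0.32 ± 0.31 at 10 ppm and 7 d (adjusted p = 0.471), and Cfi, which inactivates C3b and C4b, one of -0.23 ± 0.13 (adjusted p = 0.15). At 1 and 5 ppm Cfi fell by 0.36 and 0.34.

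Among the vitamin K-dependent clotting proteins, F7, the factor that starts the extrinsic pathway, was 539, 767, 556 and 477 with EE2 at 10 ppm and 7 d, against 1020, 1196 and 2162 in the lowest, median and highest control. The groups did not overlap (-1.14 ± 0.18, adjusted p = 1.33e-06), and at 28 d F7 fell by 0.64. F10, which cleaves prothrombin and lies next to F7 on chromosome 8, fell by 0.98 at 7 d (adjusted p = 8.94e-09) and by 0.51 at 28 d, and by 0.58, 0.36 and 0.95 at 1, 2.5 and 5 ppm. Proc, the precursor of the anticoagulant protein C, fell by 0.40 at 7 d and by 0.38 at 28 d. F2, prothrombin itself, fell at 5 ppm by 0.43 and had changes of -0.27 at 10 ppm (adjusted p = 0.0736) and -0.29 at 28 d (adjusted p = 0.0542). F9 had a change of -0.13 ± 0.12 at 10 ppm and 7 d (adjusted p = 0.429), with levels of 4859, 4194, 6018 and 6054 against 5367, 5656 and 6084 in the lowest, median and highest control.

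Pros1, which encodes protein S, the cofactor of activated protein C, was one of the 2 genes that rose at 10 ppm and 7 d. It was 1417, 1116, 1422 and 2272 with EE2, against 854, 941 and 1106 in the lowest, median and highest control. The EE2 arrays were all higher, replicate 2 by little (0.65 ± 0.21, adjusted p = 0.0132), and the call was lost without EE2 replicate 4. At 28 d the change was 0.35 ± 0.21 (adjusted p = 0.224), with levels of 1248, 1167, 1493 and 1096 against 726, 983 and 1264 in the lowest, median and highest control.

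F11, the contact factor that activates factor IX, was the other. It was 2430, 2583, 2817 and 2488 with EE2 at 10 ppm and 7 d, against 1304, 1807 and 2081 in the lowest, median and highest control. The groups did not overlap at 7 d (0.54 ± 0.14, adjusted p = 0.00187). At 28 d F11 was 2617, 2493, 2629 and 2329 with EE2, against 1393, 1868 and 2284 in the lowest, median and highest control, again without overlap (0.44 ± 0.14, adjusted p = 0.0125). That call was lost with arrays sharing a number in their names averaged (limma adjusted p = 0.059). Klkb1, plasma prekallikrein and the neighbour of F11 on chromosome 8, had a change of 0.49 ± 0.24 at 7 d (adjusted p = 0.111). F12 and Kng1, which encode factor XII and kininogen, the partners of prekallikrein, had changes of -0.18 and 0.03 that did not pass.

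F5, the cofactor of factor Xa, was 436, 262, 578 and 258 with EE2 at 28 d, against 580, 709 and 1250 in the lowest, median and highest control. The EE2 arrays were all lower, 1 of them by only a few units (-1.09 ± 0.24, adjusted p = 0.000265). At 7 d its change was -0.53 ± 0.24 (adjusted p = 0.081).

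Of the 4 serpins that restrain these proteases, 1 fell at 1 ppm, 1 at 2.5 ppm, 4 at 5 ppm, 3 at 10 ppm for 7 d and 2 at 28 d. Over all genes tested 7.06%, 7.02%, 11.6%, 15.2% and 13.8% fell in these comparisons. Serpinc1, antithrombin, was 191, 243, 257 and 264 at 10 ppm and 7 d, against 358, 441 and 467 in the lowest, median and highest control, without overlap. It fell by 0.81 at 7 d and by 0.75 at 28 d (adjusted p = 5.57e-07 and 1.99e-06). Serpind1, heparin cofactor II, fell by 0.98 and by 0.67 at these durations (adjusted p = 0.00113 and 0.0309). Serpinf2, the plasmin inhibitor, fell at 5 ppm by 0.36 and had a change of -0.21 at 10 ppm (adjusted p = 0.118).

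Of the genes of fibrin and its breakdown, Plg, plasminogen, fell by 0.85 at 10 ppm and 7 d and by 0.51 at 28 d (adjusted p = 2.43e-06 and 0.00367). F13b, the carrier subunit of the fibrin-crosslinking factor XIII, fell by 0.78 at 7 d and had a change of -0.16 at 28 d (adjusted p = 0.473). Fga, the fibrinogen alpha chain, had a change of -0.08 at 7 d (adjusted p = 0.391) and fell by 0.23 at 28 d, and Fgg, the gamma chain, had changes of 0.03 and -0.01. The fibrinogen genes Fga, Fgg and Fgb lie side by side on chromosome 3.

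The promoters of 3 genes are shown, chosen for their different responses to 10 ppm EE2: C9 and F7, among the 4 largest falls, and F11, which rose. The 250 bases before each start come from RefSeq on build GRCm38.p6, C9 from chr15:6445096-6445345 on the plus strand, F7 from chr8:13025784-13026033 on the plus strand and F11 from chr8:45262032-45262281 on the minus strand. Capitals mark exact matches, on either strand, of TTGCNNAA for C/EBP in C9 and F11 and of CAAAGNNCA for HNF4 in F7.
C9: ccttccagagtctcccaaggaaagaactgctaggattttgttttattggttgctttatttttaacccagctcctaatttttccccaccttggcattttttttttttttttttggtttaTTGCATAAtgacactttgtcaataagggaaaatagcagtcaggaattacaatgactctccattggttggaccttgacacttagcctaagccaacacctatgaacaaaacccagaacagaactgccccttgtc
F7: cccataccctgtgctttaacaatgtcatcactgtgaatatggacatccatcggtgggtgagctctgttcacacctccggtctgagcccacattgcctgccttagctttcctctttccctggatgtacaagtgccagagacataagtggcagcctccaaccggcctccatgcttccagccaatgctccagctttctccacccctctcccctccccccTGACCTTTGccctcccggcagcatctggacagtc
F11: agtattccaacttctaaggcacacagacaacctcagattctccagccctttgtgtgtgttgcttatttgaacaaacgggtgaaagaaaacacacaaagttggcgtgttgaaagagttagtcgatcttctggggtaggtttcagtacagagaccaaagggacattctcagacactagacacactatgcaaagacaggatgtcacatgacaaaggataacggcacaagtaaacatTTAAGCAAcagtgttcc
Of the 36 genes, 27 had a window in the RefSeq table. The C/EBP motif was in 7 of the 27 (25.9%) and in 9.56% of all 32851 windows, the HNF4 motif in 3 (11.1%) and 5.49%, and TTCNNNGAA for STAT in 6 (22.2%) and 7.02%. The estrogen response element, GGTCA and TGACC with 3 bases between, was in 0 of the 27 and in 0.06% of windows, and the glucocorticoid element, GNACA and TGTNC with 3 bases between, in 0 and 0.39%. Matches are letters in a window and were not tested against the changes.

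The lower EE2 doses at 7 d gave 15 falls at 1 ppm, 10 at 2.5 ppm and 21 at 5 ppm among the 36 genes, and no rise. Over all genes tested 7.06%, 7.02% and 11.6% fell at these doses. The median change of the 36 was -0.31, -0.26 and -0.59, and over all genes it was 0.00 at each dose. With all arrays 801, 797 and 1314 of all genes fell at these doses, and 714, 860 and 1456 rose. Without replicate 3, which had high macrophage markers, 13 members fell at 1 ppm and 24 at 5 ppm. In these fits 1737 and 2470 of all genes were called, risen and fallen together. Without replicate 1 of 1 ppm 9 members fell, with 899 of all genes called. Without replicate 2 or replicate 3 of 2.5 ppm 6 members fell, with 1193 and 1243 of all genes called. In a trend over the control and the 4 doses, 19 of the 36 genes fell and 2 rose, Pros1 and F11, with 15.2% falling and 18.7% rising over all genes. The steepest was Mbl1, with a slope of -0.55 ± 0.05 per step (limma adjusted p = 1.32e-13). Each dose counted as 1 step whatever its size. Next came C9 with -0.43 ± 0.12 (adjusted p = 0.00224) and Masp2 with -0.34 ± 0.03 (adjusted p = 1.37e-12). The C9 slope does not describe an even fall with each step, since its change was -3.43 at 5 ppm and -1.83 at 10 ppm.

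At 28 d with 10 ppm EE2, 16 of the 36 genes fell and 3 rose, where 13.8% of all genes fell and 14.8% rose. The median change of the 36 was -0.32, against -0.01 over all genes. The durations used separate controls, and 13 genes fell at both, which is 13 of the 17 at 7 d and 13 of the 16 at 28 d. Over all genes tested, 905 fell at both, which is 52.4% of the 1727 at 7 d and 57.7% of the 1568 at 28 d. On the 2 chips that held both EE2 and control arrays the median change was -0.32 and -0.40. These arrays are also part of the whole comparison. The change at 28 d minus that at 7 d passed for none of the 36 genes with limma, against 2.55% of all genes, and 6 of the 36 and 1808 of all 11352 genes had an unadjusted p under 0.05. Among these 6, the difference was -1.23 ± 0.47 for C6 (adjusted p = 0.155), 0.66 ± 0.20 for Masp2 (adjusted p = 0.0622) and 0.79 ± 0.31 for Mbl1 (adjusted p = 0.17). The feed controls themselves, 28 d minus 7 d, had changes of -0.08 for C6, -0.37 for Masp2 and -0.64 for Mbl1, none of which passed. With EE2, Mbl1 was 620 to 911 at 7 d and 703 to 873 at 28 d, and Masp2 680 to 1232 and 985 to 1389. Without EE2 replicate 2 at 7 d, C6 passed with -1.66 (limma adjusted p = 0.0285), and 417 of all genes passed in that fit. Replicate 2 had the lowest C6 of its group, 472, so leaving it out was bound to enlarge the difference. That fit therefore cannot serve as a test of the C6 difference.

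**Figure D4:**
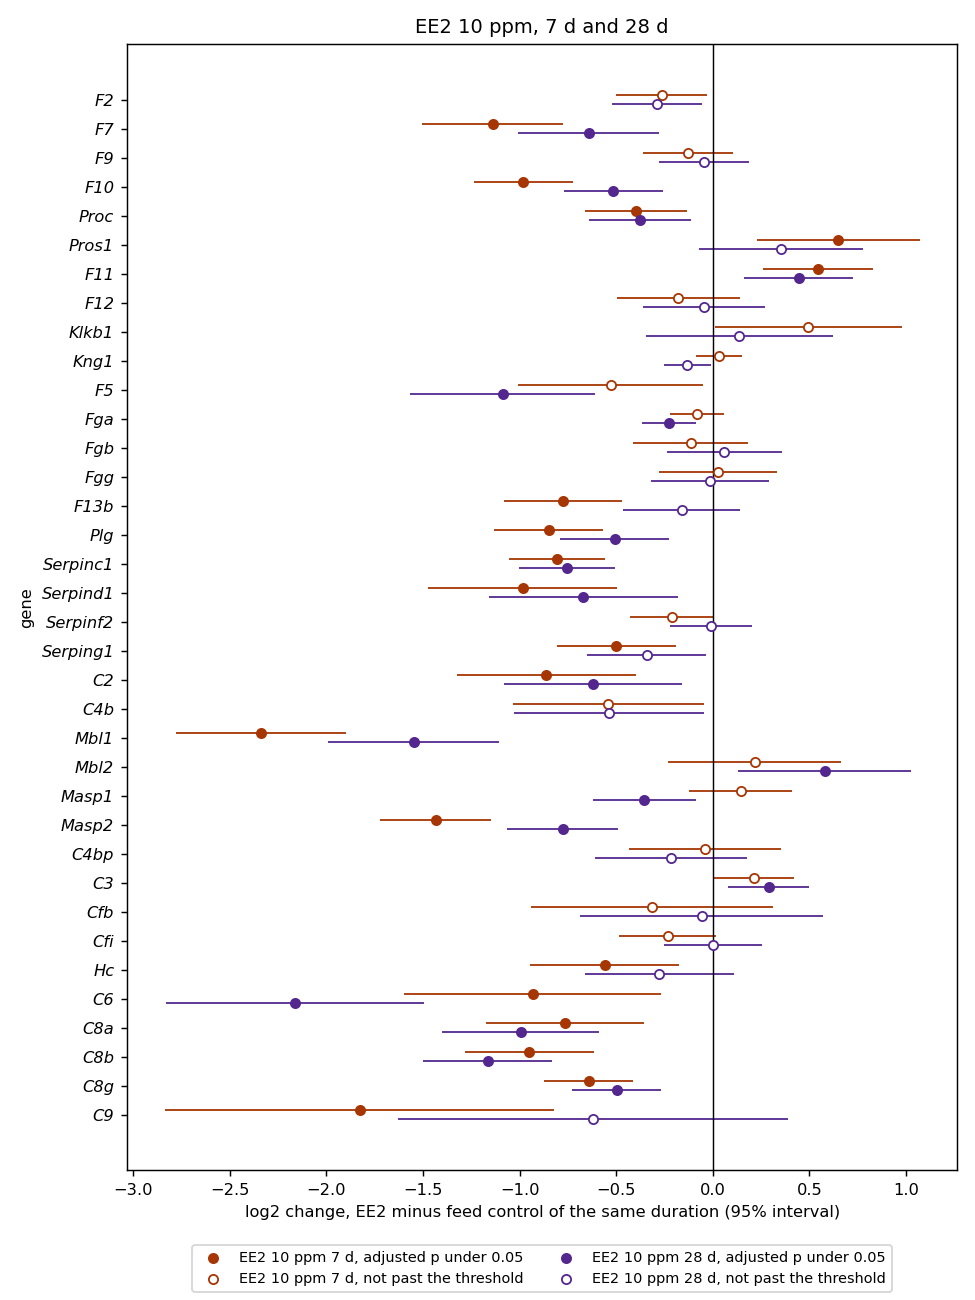
Log2 change of each gene with EE2 at 10 ppm for 7 d and for 28 d, each against the feed control of its duration, with the 95% interval of the fit; filled points passed an adjusted p of 0.05. Mbl1 is lowest at 7 d and C6 lowest at 28 d, and F11 lies above 0 at both.

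Other genes of the pathways, from lists chosen with earlier results known, did not move as a block. Over all genes tested, 18.1% rose and 15.2% fell with EE2 at 10 ppm and 7 d, and 14.8% rose and 13.8% fell at 28 d. Of 10 further complement components tested at 10 ppm and 7 d, 4 rose and 2 fell, and at 28 d 5 rose and 1 fell. The risen ones included subunits of C1q, the recognition protein of the classical pathway: C1qb had a change of 1.46 at 7 d (adjusted p = 0.00785) and 2.24 at 28 d, C1qc of 1.26 and 2.32, and C1qa of 0.79 at 7 d (adjusted p = 0.0764) and 1.62 at 28 d, where it passed. Cfp, properdin, which stabilises the alternative pathway, rose by 1.47 and 1.89, and Fcna, ficolin A, by 1.19 and 1.84. These are genes that macrophages make, and the macrophage markers given above rose in the same groups. The part of macrophages in the rises of these genes was not tested. C1s1, the C1 protease made by hepatocytes, fell by 0.53 and 0.50.

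Of 16 further coagulation and fibrinolysis genes, 4 rose and 4 fell at 10 ppm and 7 d, and 4 rose and 2 fell at 28 d. The shares of all genes were 18.1% risen and 15.2% fallen at 7 d, and 14.8% and 13.8% at 28 d. Habp2, a protease that can activate factor VII, fell by 0.99, Hrg, a plasma glycoprotein that binds heparin and plasminogen, by 0.79, and Proz, protein Z, by 0.53. Serpina5, the protein C inhibitor, rose by 0.77, and with PRED it rose by 2.68 at 7 d and 2.91 at 28 d. Of 8 complement regulators and receptors, 3 rose and 4 fell, the largest fall being Cd59a, the inhibitor of the C9 pore, by 0.62. Of 4 genes of the vitamin K cycle and factor secretion 2 fell: Vkorc1, which recycles vitamin K, by 0.90, and Ggcx, which uses it to modify the clotting factors, by 0.39. At 28 d Ggcx fell by 0.35 and Vkorc1 had a change of -0.05 (adjusted p = 0.86).

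Of 12 liver transcription factors and receptors, 3 rose and 1 fell at 10 ppm and 7 d, where 18.1% of all genes rose and 15.2% fell. Cebpa fell by 1.06 at 7 d and by 0.74 at 28 d, and Cebpb rose by 0.65 and 1.17. Both encode C/EBP factors of hepatocytes. Hnf4a rose by 0.68 at 7 d and had a change of 0.02 at 28 d (adjusted p = 0.937), and Nr3c1, the glucocorticoid receptor, had a change of 0.04 at 7 d (adjusted p = 0.259). With PRED at 25 ppm and 7 d Nr3c1 had a change of 0.03 (adjusted p = 0.608), and Ghr, the growth hormone receptor, fell by 0.77 at 7 d and also at 28 d. Esr1 was not among the genes tested.

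With PRED at 25 ppm for 7 d, 2 of the 36 genes rose and none fell, where 3.29% of all genes rose. The median of the 36 was 0.09, against 0.00 over all genes. F9, the protease missing in hemophilia B, was 8793, 9920, 9240 and 9321 with PRED, against 5367, 5656 and 6084 in the lowest, median and highest control. All PRED arrays were well above all controls (0.71 ± 0.12, adjusted p = 1.67e-05). F11 was 2140, 2570, 2911 and 2193 with PRED, against 1304, 1807 and 2081 in the lowest, median and highest control. The groups lay close but did not overlap (0.46 ± 0.14, adjusted p = 0.0353), and with the chip as a block the adjusted p was 0.0552. The call was lost in 5 of the 10 fits that left out 1 array. C6 was 4236, 3878, 4334 and 4983 with PRED, against 2021, 2214 and 2612 in the lowest, median and highest control, and did not pass (0.94 ± 0.33, adjusted p = 0.0813) although the groups did not overlap. That SE comes from a spread shared by all 19 groups, among them the EE2 groups, in which C6 varied widely. At 28 d C6 was 3992, 4060, 4265 and 4342 with PRED, against 1844 to 2741 in feed controls. It did not pass there either, again without overlap.

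With PRED for 28 d, 3 of the 36 genes rose and 1 fell, where 4.64% of all genes rose and 5.25% fell. F9 was 8294, 7546, 8751 and 8400 with PRED, against 4859, 5586 and 6668 in the lowest, median and highest control, without overlap (0.56 ± 0.12, adjusted p = 0.000397). C3 was 10979, 11697, 10448 and 11145, against 7111, 8937 and 10015 in the lowest, median and highest control, and rose (0.36 ± 0.10, adjusted p = 0.0162). That call was lost with the number in the array names as a random block (adjusted p = 0.0793), with arrays sharing such a number averaged (adjusted p = 0.11), and in 2 of the 10 fits that left out 1 array. F2 was 5609, 6054, 4859 and 4838, against 3727, 4144 and 4794, above all controls but narrowly, and was at the threshold (0.34 ± 0.12, adjusted p = 0.0496). The call was lost with the chip as a block (adjusted p = 0.09) and in 6 of the 10 fits that left out 1 array.

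Klkb1 was the only one of the 36 that fell with PRED at 28 d. It was 1102, 1475, 1550 and 1484 with PRED, against 1950, 2703 and 3902 in the lowest, median and highest control, without overlap (-0.94 ± 0.24, adjusted p = 0.0056). With arrays sharing a number in their names averaged, the change was -0.85 and did not pass (limma adjusted p = 0.095). On the 2 chips that held both groups, the difference for Klkb1 was -1.81 and -0.33. At 7 d the change of Klkb1 was -0.09 (adjusted p = 0.887), and the difference between durations was -0.85 ± 0.34 (adjusted p = 0.156).

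Mbl1 differed between the durations of PRED. With PRED at 7 d it was 2349, 2727, 2267 and 3324, against 2981, 3528 and 5623 in the lowest, median and highest control, and at 28 d 4859, 3619, 2804 and 3720, against 1861, 2318 and 3117. The groups overlapped at both durations, and neither change passed (-0.49 at 7 d, adjusted p = 0.202; 0.63 at 28 d, adjusted p = 0.0563). The difference between durations passed narrowly (1.12 ± 0.31, adjusted p = 0.0495), as it did for 1.42% of all genes, and was lost in 13 of the 20 fits that left out 1 array. The feed controls themselves had medians of 2318 at 28 d and 3528 at 7 d.

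Acute phase genes moved with PRED at 28 d. Of 15 on the list, 11 rose, where 4.64% of all genes rose. The summed intensity of the list was 117928 to 156513 with PRED against 65262 to 107428 in feed controls. At 7 d none passed, and the sum was 104710 to 136508 with PRED against 88645 to 125866 in feed controls. With EE2 at 10 ppm, 4 of the 15 rose at 7 d and 7 at 28 d, where 18.1% and 14.8% of all genes rose. The feed controls themselves had 2 of the 15 lower at 28 d than at 7 d, with a median difference of -0.85. The part of these genes' response in the PRED values of the 36 genes was not tested.

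The lower PRED doses at 7 d called none of the 36 genes with limma. At an unadjusted p under 0.05 there were 1 of the 36 at 1.25 ppm, 2 at 2.5 ppm and 7 at 5 ppm, where 499, 396 and 1328 of all 11352 genes had one, and at 5 ppm 0.599% of all genes passed. F9 was nearest at 5 ppm, with levels of 7254, 9499, 6805 and 7365 with PRED, all above the highest control of 6084 (0.43 ± 0.12, adjusted p = 0.0646). Over the control and the 4 doses, a rising trend passed for 3 of the 36 genes, F9, C6 and C4bp, and 4.08% of all genes had a rising trend. The slopes per dose step were 0.17 ± 0.03 for F9, 0.23 ± 0.08 for C6 and 0.14 ± 0.04 for C4bp (limma adjusted p = 5.57e-06, 0.0454 and 0.0421).

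**Figure D5:**
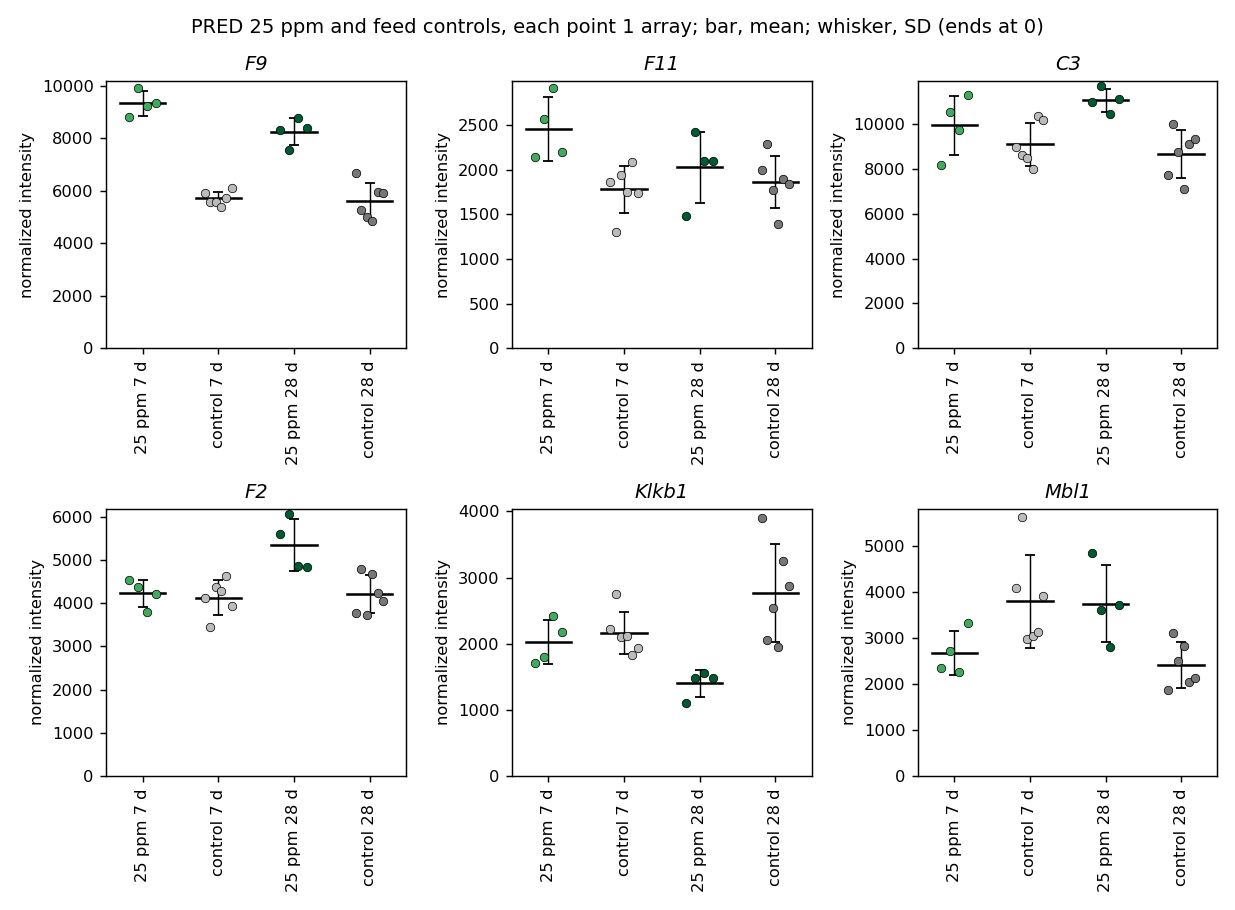
Normalized intensity of 6 genes with PRED at 25 ppm and in feed controls, at 7 d and 28 d; each point is 1 array, the bar is the mean and the whisker the SD. F9 is above all controls at both durations, and Klkb1 is below all controls at 28 d.

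EE2 and PRED were both given at 2.5 and 5 ppm for 7 d, so these doses could be compared directly. At 2.5 ppm 9 of the 36 genes were lower with EE2 than with PRED and none higher, where 4.07% of all genes were lower, and at 5 ppm 23 were lower and none higher, where 8.43% were lower. Doses equal in ppm are not equal in hormonal activity. At 5 ppm C9 was 196, 288, 3835 and 259 with EE2, against 7102, 6617, 6986 and 6704 with PRED, with no overlap (-3.75 ± 0.55, adjusted p = 4.80e-07). C6 was 315, 264, 1478 and 760 with EE2, against 4160, 4214, 3745 and 3356 with PRED (-2.76 ± 0.37, adjusted p = 4.43e-08). F9 was 3822, 5053, 5640 and 4352 with EE2, against 7254, 9499, 6805 and 7365 with PRED, also without overlap (-0.71 ± 0.13, adjusted p = 2.58e-05). Without replicate 3 of EE2 at 5 ppm 23 genes were called, and without replicate 1 of EE2 at 2.5 ppm 15 were. A fit of only the groups compared called 5 at 5 ppm. How many of all genes passed in these fits is not given here, so the counts cannot be set against a share.

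A4 called none of the 36 genes at any dose or duration with limma, and 0% of all genes at 50 mg/kg/day for 7 d and 0% for 28 d. At an unadjusted p under 0.05 there were 2 of the 36 genes, Fgb and C8b, at 50 mg/kg/day and 7 d, where 429 of all genes had one, and none in the other A4 groups. C9 lay between 5525 and 6406 with A4 at 50 mg/kg/day for 7 d, against 3320 to 6141 in gavage controls, and Mbl1 between 2683 and 3518 against 1847 to 2813. These ranges overlapped. The controls were compared in the same way. Feed controls at 28 d against 7 d called none of the 36 with limma, with 6 of the 36 and 1868 of all 11352 genes at an unadjusted p under 0.05, where 1.02% of all genes passed. Gavage against feed controls at 7 d called none, with 3 of the 36 and 1333 of all genes at an unadjusted p under 0.05, where 0% of all genes passed.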

How the data were processed

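Liver RNA of male mice was measured on 80 Illumina bead arrays. The deposited table holds normalized intensities on a linear scale for 18138 entries, with a detection p-value beside each. It was exported from GenomeStudio, per the submitters' processing notes, and the authors' normalization and the genome build are not given in the sources used here. A second deposited table held the same intensities for the 18111 shared symbols. No per-sample column was left unused. Between 7743 and 9328 entries were detected per array, and the number of arrays limits the precision.

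Groups came from the labels, which give no replicate numbers; replicates are numbered in accession order. The p-values reflect how far arrays differed within their groups, with each gene's spread pooled over all 19 groups, not only those compared. For C9 and C6, which varied more in some groups, the pooled spread can differ from that of the groups compared. The labels do not say how much of the spread is technical. Entries detected (p under 0.05) on at least 4 arrays, 11352 in all, were tested on log2(intensity + 16) with limma 3.58.1 in R 4.3.3: group means over all 19 groups, empirical Bayes (61 residual and 1.56 prior degrees of freedom) and Benjamini-Hochberg adjustment within each comparison. The fit was tested on simulated data. Alternatives changed the constant added, background correction, normalization, filter, prior and samples fitted, and added the chip, or the number in an array's name, as a block. Figures were drawn with matplotlib 3.10.9 in Python 3.11.15.

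The 36 genes, the other lists and the tests were chosen with earlier results of these data known. Every member is accounted for, and values per array are given for the 4 largest falls and the largest rises past the threshold at the top dose of each compound and duration, with others added after their values were seen. Of the other lists, counts are given with up to 3 of the largest changes past the threshold, a few genes named whatever their change (Ggcx, Vkorc1, C1qa, C1qb, C1qc, Hnf4a, Esr1, Nr3c1; 1 further gene of that rule and 1 further motif are not reported here), and Proz, Fcna and C1s1, chosen after their values were seen. Promoters are from RefSeq, and 9 of the 36 genes had no window there. Coordinates refer to RefSeq's build and not to the arrays.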

Additional observations from a re-analysis of the deposited data

Results flagged for a closer look

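In 9 cases 1 array lay apart from the others of its group, where chance, at about 1 in 20 checks, would set 6.3 of those made apart. C9 read 3835 on replicate 3 of EE2 at 5 ppm, where the other EE2 arrays of that dose read 196 to 288. It read 182 on replicate 2 of EE2 at 10 ppm for 7 d, where the others read 2537 to 3616. C6 read 361 on replicate 2 of EE2 at 28 d, where the others read 502 to 508.

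Masp2 read 1334 on replicate 2 of EE2 at 2.5 ppm (others 1448 to 1470) and 1389 on replicate 4 of EE2 at 28 d (others 985 to 1030). F11 read 1095 on replicate 2 of EE2 at 1 ppm (others 1545 to 1639), and F2 read 2627 on replicate 4 of EE2 at 2.5 ppm (others 3937 to 4126). Klkb1 read 1102 on replicate 1 of PRED at 28 d (others 1475 to 1550), and Mbl2 read 1226 on replicate 2 of the feed controls at 7 d (others 2167 to 3018).

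The change of Mbl1 with PRED differed between the durations, by 1.12 on the log2 scale (28 d minus 7 d, limma adjusted p = 0.0495).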

How the results depend on the processing

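No result changed direction. Across the alternatives, 269 of 300 values that answer a comparison kept their side or stayed within 1.5 times, and 208 of 240 values of named genes did. With the number in the array names as a random block, EE2 at 28 d had 1 risen gene in place of 3, PRED at 28 d had 1 risen, PRED at 7 d had 1 risen and the PRED trend had 1. Averaging arrays that share a name number gave 0 risen for EE2 at 28 d, 1 risen for PRED at 7 d, 1 risen and 0 fallen for PRED at 28 d, and 1 for the PRED trend. Fitting only the groups compared gave 5 risen and 1 fallen for PRED at 7 d, 7 risen and 3 fallen at 28 d, 2 at the lower PRED doses, 6 for the PRED trend, 2 for the PRED durations, and 5 in place of 23 for EE2 against PRED at 5 ppm; there C9 at 10 ppm and 7 d had an adjusted p of 0.0984. Genes detected on a whole group gave 6 risen and 2 fallen for PRED at 28 d, and quantile normalization 2 fallen. Without a detection filter PRED at 7 d had 1 risen and its trend 1; with the chip as a block PRED at 7 d had 1 risen and its lower doses 1. The single call between PRED durations became 0 under normexp, quantile normalization, median centring, no filter, the chip block, the name block and averaging. The causes were not tested.

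Leaving out 1 array at a time gave 11 to 18 fallen and 1 to 4 risen for EE2 at 10 ppm and 7 d, 11 to 17 and 1 to 3 at 28 d, 9 to 16 at 1 ppm, 6 to 13 at 2.5 ppm, 18 to 24 at 5 ppm, 17 to 22 for the trend, 0 to 2 between durations and 0 to 4 for 10 against 5 ppm. For PRED it gave 0 to 1 fallen and 1 to 2 risen at 7 d, 1 to 2 fallen and 1 to 6 risen at 28 d, 1 to 3 for the trend and 0 to 3 between durations. EE2 against PRED had 8 to 15 at 2.5 ppm and 19 to 24 at 5 ppm, and the controls 0 to 1. No paired analysis was possible because the labels give no replicate numbers; the chip and the name number were fitted as blocks instead. Fgb lay too close to background to be measured.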
